A study of Mus musculus with 47 samples.

Results

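Muscle from adrenalectomized mice injected with dexamethasone was compared between ZT12 and ZT0, where ZT counts hours from lights on. The 8 libraries, 4 at each time, were taken by their column names from the 47 libraries of the series. The muscle was the tibialis anterior, a fast-fibred muscle at the front of the shin, taken whole from female wild-type C57BL/6 mice fed ad libitum. All 8 mice had been adrenalectomized (ADX) and given dexamethasone (DEX), a synthetic agonist of the glucocorticoid receptor, at 5 mg/kg by intraperitoneal injection for 10 days, each time at ZT12. Mice were 14 weeks old apart from ZT0 replicate 4, which was 11 weeks old. The labels number the ZT0 replicates 1 to 4 and the ZT12 replicates 5 to 8. They do not state in words that each is a separate animal, so p-values measure the spread between libraries. The fit that gives the calls pools this spread over all 47 libraries of the series, not these 8 alone. The groups used for comparison were wild-type sham-operated mice of 9 to 12 weeks (4 libraries at each time), wild-type ADX mice of 12 to 17 weeks (3 at ZT0 and 4 at ZT12), and wild-type ADX mice of 13 to 14 weeks given adrenaline (ADR) at 0.5 mg/kg on the same schedule (4 at each time). The fit over all groups also took in sham-operated and ADX mice of another genotype, labelled RE-RE, of 8 to 18 weeks (4 libraries at each time). Per the labels, adrenalectomized mice drank saline with glucose. No vehicle-injected group was used here, so injection and drug cannot be told apart. The labels also speak of 2 weeks between treatment and tissue collection, so the interval from the last dose to collection is not clear, and time of day and time since a dose cannot be told apart.

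The circadian clock of a muscle fibre is a feedback loop. BMAL1 (Arntl) with CLOCK or NPAS2 binds E-box sequences and drives the Per and Cry genes, whose proteins then repress BMAL1, while REV-ERB proteins repress and ROR proteins activate Arntl through a shared DNA element. Glucocorticoids are secreted by the adrenal cortex in a daily rhythm that peaks, in mice, near the start of the dark phase, and the ligand-bound glucocorticoid receptor acts on target genes in the nucleus, with Per1, Fkbp5 and Tsc22d3 among the best known. In skeletal muscle, glucocorticoids are known for raising genes of protein breakdown and amino acid release and for opposing insulin.

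Values are FPKM, fragments scaled to the length of the gene and the size of the library, so they are levels per length. A gene is said to have risen or fallen where ZT12 and ZT0 differed with a Benjamini-Hochberg adjusted p under 0.05 in limma, fitted on log2(FPKM + 0.01) over all 12 groups of the series. Log2 changes on that scale are given as ZT12 minus ZT0, with the standard error (SE). In this contrast 3337 of 12000 tested genes passed (27.8%), of which 1759 rose (14.7%) and 1578 fell (13.2%). The median change over all tested genes was -0.000838. Of the genes that passed, 384 had changed at least 2-fold, 235 of them upward and 149 downward. In 3066 tested genes (25.6%) the values of the 4 ZT0 libraries did not overlap those of the 4 ZT12 libraries. A fit of the 8 libraries alone called 2487 genes (20.7%), and 2242 of these were among the 3337. Changes in levels of bulk muscle do not separate fewer cells of a type from less RNA per cell.

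Depth in the 8 libraries was 19.3 to 25.8 M reads, recovered from the steps between low values of 68 genes that are listed at 0 in at least 30 libraries. The 10 fast-fibre markers checked were all high, from 2395 FPKM to 25627 FPKM. Rank correlations (Spearman, across genes) were 0.984 to 0.991 between libraries of 1 time and 0.967 to 0.975 between times. A feature of the deposited values bears on what a fold or a 0 means: 278 to 382 genes per library are listed at exactly 0, and libraries of the same time share 25 to 34 exact values above 0, against 0 to 1 between times. Where such a lowest value is shared at both times, in 42 genes, it differed between the times by a median of 0.0064 FPKM and by at most 0.281 FPKM. In 77 of 77 pairs, differences from such a shared value were equal or in ratios of whole numbers up to 8, within 0.5%. The sources used here do not say whether an amount was added to or subtracted from each gene, and this was not tested for higher genes. Folds, also of higher genes, and values of exactly 0 are those of the deposited values, and a 0 may not mean that no reads were counted.

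Of the clock activators, 3 of 3 tested members were lower at ZT12 than at ZT0, whereas 5 of 8 repressors rose and 1 fell. Both REV-ERB genes and 3 of 4 D-box factors also rose. Over all tested genes 14.7% rose and 13.2% fell. With only the 8 libraries in the model 4 repressors rose, and on leaving out any 1 library 2 activators were called. Short stretches from 5′ ends of clock genes are shown because they carry the elements through which these groups are known to be linked. They come from RefSeq promoter windows (GRCm38.p6, 250 bases before to 50 after the start of a gene, 32851 windows), read 5′ to 3′ along the strand of the gene. Both strands were searched and capitals mark the match. The REV-ERB/ROR element TAGGTCA was found in 2.61% of all windows, the E-box CACGTG in 7.15% and the D-box TTATGTAA in 0.938%. Of 32 genes looked up, 28 had a window.
Arntl, chr7:113207530-113207558, plus strand, REV-ERB/ROR element: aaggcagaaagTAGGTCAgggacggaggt
Nfil3, chr13:52981040-52981076, minus strand, the same element read on the opposite strand: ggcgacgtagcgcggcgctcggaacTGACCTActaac
Per1, chr11:69098758-69098813, plus strand, E-box: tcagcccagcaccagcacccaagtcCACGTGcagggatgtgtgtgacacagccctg
Cry1, chr10:85185084-85185139, minus strand, E-box: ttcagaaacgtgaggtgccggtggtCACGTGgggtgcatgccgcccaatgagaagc
Ciart, chr3:95882253-95882358, minus strand, 3 E-boxes: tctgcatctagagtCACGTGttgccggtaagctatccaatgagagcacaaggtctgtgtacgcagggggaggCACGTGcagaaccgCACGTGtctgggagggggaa
Bhlhe41, chr6:145865543-145865598, minus strand, E-box: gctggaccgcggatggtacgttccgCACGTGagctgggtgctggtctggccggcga
Per3, chr4:151044802-151044884, minus strand, 2 D-boxes: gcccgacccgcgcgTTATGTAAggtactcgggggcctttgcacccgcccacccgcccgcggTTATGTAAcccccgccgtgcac
A match is a description of the letters in the window and says nothing of binding in these samples.

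Arntl, the gene for BMAL1 (chromosome 7, 113207465 to 113314126, plus strand, GRCm38), read 22.4, 26.1, 23.6 and 21.4 FPKM at ZT0 and 5.45, 5.75, 5.02 and 5.10 FPKM at ZT12. All 4 ZT12 libraries lay far below all 4 ZT0 libraries, with no overlap. The fitted change was -2.13 (SE 0.81, limma adjusted p = 0.0442), and the call was lost on leaving out any 1 of the 8 libraries from the fit over all groups. With only these 8 libraries in the model its adjusted p was 4.731e-06. Npas2, the partner of BMAL1 that can replace CLOCK, fell from 0.392, 0.502, 0.332 and 0.492 FPKM to 0.0897, 0.0731, 0.0973 and 0.0778 FPKM, a change of -2.21 (SE 0.29, adjusted p = 2.524e-07). Clock, the usual partner, went from 3.85 ± 0.226 FPKM to 2.52 ± 0.224 FPKM (SD, n = 4 each) and changed by -0.61 (SE 0.093, adjusted p = 3.184e-06).

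In sham-operated mice Arntl was lower still at ZT12. It read 14.2, 18.8, 16.2 and 18.0 FPKM at sham ZT0 and 0.673, 0.123, 0.758 and 0 FPKM at sham ZT12. The dexamethasone-injected ZT12 libraries thus lay above every sham ZT12 library, and the ZT0 libraries above every sham ZT0 library. The time effect of Arntl was smaller in size with dexamethasone than in sham, by 4.55 on the log2 scale (limma adjusted p = 0.00405), and by 1.77 on log2(FPKM + 1) (adjusted p = 2.792e-06). The time effect of Clock differed from sham in the same direction, by 0.66 (adjusted p = 0.0003725). Npas2 is listed at 0 in all 4 sham ZT12 libraries, so its fitted difference of 3.74 (adjusted p = 2.191e-08) is set by the offset. On log2(FPKM + 1) the difference of Npas2 was 0.29 (adjusted p = 0.003129).

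The repressors did not move as 1 group. Cry1, a repressor of BMAL1 and CLOCK, fell from 14.4, 14.5, 15.6 and 13.6 FPKM to 6.59, 6.89, 7.08 and 7.11 FPKM, without overlap. Its change was -1.07 (SE 0.10, adjusted p = 2.195e-10), against -0.31 in sham, and the difference of -0.76 passed (adjusted p = 0.0002187). Cry2, its paralog, changed by 0.06 and did not pass (adjusted p = 0.698). Ciart (Chrono), a further repressor of BMAL1, rose from 0.995, 1.02, 0.957 and 1.31 FPKM to 8.81, 10.3, 8.66 and 8.82 FPKM, a change of 3.09 (SE 0.85, adjusted p = 0.00519). Bhlhe40 and Bhlhe41 (DEC1 and DEC2), E-box-binding repressors, rose from 26.8 ± 6.09 to 60.3 ± 6.08 FPKM and from 5.20 ± 0.898 to 13.0 ± 1.25 FPKM (SD, n = 4 each), with changes of 1.19 and 1.33 (adjusted p = 1.452e-08 and 3.74e-08). The sham change of Bhlhe40 was -0.05, and its difference from sham, 1.24, passed (adjusted p = 1.371e-05).

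On the log2 scale Per1 and Per2 differed less between times than in sham, and Per3 differed more. Per1, an E-box gene that the glucocorticoid receptor also induces, read 8.08, 12.1, 12.9 and 18.6 FPKM at ZT0 and 18.6, 19.1, 18.5 and 17.7 FPKM at ZT12. ZT0 replicate 4 reached the ZT12 range, the groups overlapped, and the change of 0.57 did not pass (SE 1.26, adjusted p = 0.805). In sham muscle Per1 read 0.344, 0, 0 and 0.978 FPKM at ZT0 and 14.4 to 22.9 FPKM at ZT12. The dexamethasone group therefore stood at sham ZT12 levels at ZT12 and far above sham at ZT0, and the difference between time effects passed (-7.34, adjusted p = 0.00304; -3.40 on log2(FPKM + 1)). Per2 read 1.36, 2.28, 2.39 and 4.16 FPKM at ZT0 and 3.24, 3.48, 5.27 and 3.81 FPKM at ZT12. These values overlapped, and the rise of 0.72 (SE 0.27, adjusted p = 0.0418) was lost with only the 8 libraries in the model (adjusted p = 0.166) and in 6 of 8 fits that left out 1 library. The time effect of Per2 was below that in sham by -3.62 (adjusted p = 6.66e-09). Per3 is listed at 0 in all 4 ZT0 libraries and read 5.85, 6.02, 6.43 and 5.94 FPKM at ZT12, against 1.66 to 2.55 FPKM at sham ZT0 and 7.57 to 8.85 FPKM at sham ZT12. Its fitted difference from sham, 7.21, depends on the offset. On log2(FPKM + 1) it was 1.20 (limma adjusted p = 6.438e-08).

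Nr1d1, which encodes REV-ERB alpha, was higher at ZT12 with dexamethasone and higher at ZT0 in sham, though 1 sham value overlapped. It read 21.0, 21.1, 20.3 and 21.0 FPKM at ZT0 and 64.2, 62.5, 56.7 and 60.6 FPKM at ZT12 with dexamethasone. The sham values were 29.0, 40.9, 34.2 and 24.4 FPKM at ZT0 and 14.7, 18.8, 15.7 and 25.9 FPKM at ZT12. Nr1d1 rose by 1.55 (SE 0.17, adjusted p = 1.043e-08) with dexamethasone and changed by -0.78 in sham, a difference of 2.33 (adjusted p = 8.306e-09). Nr1d1 also differed from ADX mice by 2.17 and from adrenaline-injected mice by 1.96 (adjusted p = 1.485e-07 and 6.813e-07). Nr1d2 (REV-ERB beta) rose from 11.5, 12.0, 11.0 and 15.3 FPKM to 37.6, 37.4, 41.3 and 38.4 FPKM, by 1.64 (SE 0.095, adjusted p = 2.045e-16), and by 0.79 in sham. Rora, an activator of Arntl at the same element, changed by 0.15 and did not pass (adjusted p = 0.144).

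D-box factors carry the clock signal to output genes. Dbp, a clock output gene with a wide daily swing in many tissues, read 0.904, 1.21, 1.21 and 1.79 FPKM at ZT0 and 58.5, 69.0, 72.0 and 53.4 FPKM at ZT12, a rise of 5.65 (SE 1.06, adjusted p = 7.491e-05). Sham muscle read 0, 0, 0 and 11.9 FPKM at ZT0 and 40.2 to 66.5 FPKM at ZT12. Its difference from sham (-4.16, adjusted p = 0.0467) did not pass on log2(FPKM + 1), where it was -0.0055 (adjusted p = 0.997), or when any 1 of the 8 dexamethasone libraries was left out. Tef rose by 0.63 and Hlf by 1.05 (adjusted p = 7.67e-08 and 2.418e-07). Nfil3, the repressor that competes at D-boxes, fell from 38.2, 49.4, 46.9 and 53.4 FPKM to 15.5, 15.9, 15.9 and 18.2 FPKM, a change of -1.51 (SE 0.33, adjusted p = 0.0004367) that lay near the sham change of -1.36. Of the kinases and ligases that set the stability of PER and CRY proteins, 3 of 6 tested rose and 1 fell, beside 14.7% and 13.2% of all genes. Among them Btrc rose by 0.71 (adjusted p = 5.315e-10) and Gsk3b by 0.31, and Fbxw11 fell by 0.26. With only the 8 libraries in the model 2 rose and 1 fell.

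**Figure D1:**
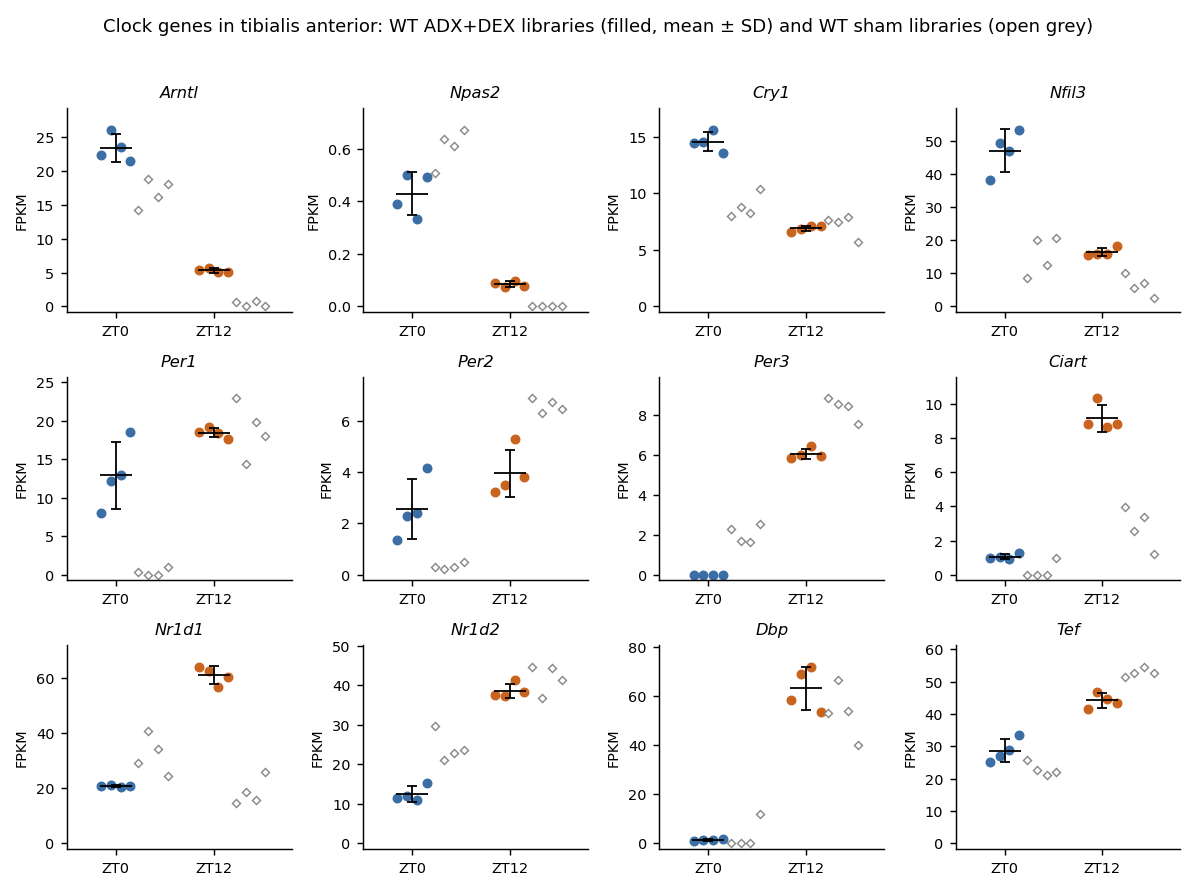
FPKM of 12 clock genes in each library at ZT0 and ZT12. Filled points are the 8 dexamethasone-injected libraries, with mean ± SD bars where no library is at 0, and open grey diamonds are the sham libraries. Nr1d1 lies between 56.7 and 64.2 FPKM at ZT12 with dexamethasone, above every sham library, and Arntl at ZT12 stays at 5.02 to 5.75 FPKM.

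Among 31 tested glucocorticoid receptor targets, a list of genes known to respond to the receptor in muscle or other tissues, 5 rose and 6 fell. Of all genes 14.7% rose and 13.2% fell, and the median change of the list was 0.15 beside -0.000838 over all genes. In sham muscle 19 of the 31 rose and 2 fell, with a median of 1.20, beside 14.0% and 9.50% of all genes. In 10 targets every ZT12 library was above every ZT0 library and in 11 every ZT12 library was below, beside 12.5% and 13.1% of all genes. With only the 8 libraries in the model, 9 targets rose and 11 fell (9.92% and 10.8% of all genes), and on log2(FPKM + 1) 7 rose and 10 fell. The cause of the difference between these fits was not tested. In the fit over all groups, the shares that rose and fell lie near those of all genes, and 20 of the 31 did not pass. Stretches from 4 promoters are shown because these genes include members higher at ZT0 and members higher at ZT12. Capitals mark the receptor core motif ACANNNTGT, found in 6.85% of all windows. A longer form, with a G and a C placed 1 base outside the core, was found in 0.475% of windows, and the stretches of Mt1 and Sgk1 hold it. In Sgk1 the capitals cover this longer form.
Glul, chr1:153899879-153899928, plus strand: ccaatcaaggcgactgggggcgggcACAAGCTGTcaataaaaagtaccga
Mt1, chr8:94178972-94179030, plus strand: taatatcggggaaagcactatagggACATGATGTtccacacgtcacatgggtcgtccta
Lcn2, chr2:32387858-32387916, minus strand: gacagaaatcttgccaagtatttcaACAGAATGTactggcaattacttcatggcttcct
Sgk1, chr10:21993679-21993737, plus strand: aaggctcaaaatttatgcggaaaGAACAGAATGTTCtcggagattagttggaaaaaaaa
Glul, Mt1 and Lcn2 had their higher mean level at ZT0 and Sgk1 at ZT12, so a match was present on either side.

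Targets that fell from ZT0 to ZT12 included genes of amino acid release and insulin signalling. Glul, glutamine synthetase (chromosome 1, 153899944 to 153909723, plus strand), read 131, 179, 157 and 193 FPKM at ZT0 and 83.8, 77.7, 84.7 and 86.6 FPKM at ZT12. Its change was -0.97 (SE 0.20, adjusted p = 0.0003179), while sham muscle rose by 2.31, from 16.2 to 27.6 FPKM at ZT0 to 89.8 to 129 FPKM at ZT12. The difference of -3.28 passed (adjusted p = 8.48e-11), as it did against ADX (-1.83, adjusted p = 4.555e-05) and adrenaline (-1.62, adjusted p = 0.0001483). Pik3r1, the regulatory subunit of PI3 kinase (chromosome 13, 101680563 to 101768217, minus strand), read 36.5, 41.6, 42.0 and 50.8 FPKM at ZT0 and 12.4, 12.1, 12.6 and 11.9 FPKM at ZT12, and fell by 1.79 (SE 0.53, adjusted p = 0.00923). In sham it is listed at 0 in all 4 ZT0 libraries and read 7.58, 2.74, 5.57 and 5.74 FPKM at ZT12. The time of the higher level was therefore reversed between the conditions for both genes.

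Foxo1, a transcription factor that drives atrophy genes, was the same to within 0.0263 FPKM (SD) in the 4 ZT12 libraries and varied widely at ZT0. It read 7.31, 9.99, 10.5 and 15.6 FPKM at ZT0 and 4.71, 4.71, 4.76 and 4.72 FPKM at ZT12, without overlap. It fell by 1.14 (SE 0.17, adjusted p = 1.917e-06) and rose by 1.28 in sham, a difference of -2.42 (adjusted p = 1.72e-09). Zbtb16 (PLZF), a transcription factor, fell by 1.32 from 33.6 ± 3.96 to 13.4 ± 1.006 FPKM (SD, n = 4 each, limma adjusted p = 0.001494). Sult1a1, a sulfotransferase, fell by 0.35 (adjusted p = 0.0182), a call lost in 3 of 8 fits that left out 1 library. Cdkn1a, the cell cycle inhibitor p21, was 88.5 to 96.5 FPKM at ZT0 and 39.9 to 46.4 FPKM at ZT12, without overlap. Its change of -1.10 passed (adjusted p = 0.0497), and the call was lost in all 8 such fits. With only the 8 libraries in the model its adjusted p was 2.057e-05.

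Fkbp5, a co-chaperone that lowers the affinity of the receptor for its ligand, Mt1 and Mt2, the metallothioneins, and Lcn2, a secreted lipocalin, were all far above sham at both times. Fkbp5 read 80.6, 91.0, 97.0 and 98.9 FPKM at ZT0 and 37.2, 36.7, 35.4 and 37.4 FPKM at ZT12, with no overlap. Sham libraries are listed at 0 at ZT0 and read 6.81, 0, 0.475 and 2.90 FPKM at ZT12. The change of Fkbp5, -1.32 (SE 0.94), did not pass in the fit over all groups (adjusted p = 0.327), while with only the 8 libraries its adjusted p was 2.392e-05. Mt1 was 209 to 249 FPKM at ZT0 and 91.7 to 100.3 FPKM at ZT12, and Mt2, 288 to 369 FPKM at ZT0 and 82.7 to 93.1 FPKM at ZT12. Their changes of -1.20 and -1.83 did not pass either (adjusted p = 0.508 and 0.460) and had adjusted p = 3.353e-05 and 1.783e-05 in the 8 libraries. Lcn2 was 101 to 162 FPKM at ZT0 and 84.7 to 92.1 FPKM at ZT12, a change of -0.46 (adjusted p = 0.834, and 0.04902 in the 8 libraries).

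The targets that rose at ZT12 included regulators of inflammation and of kinase signalling. Nfkbia, the inhibitor of NF-kappa B, read 14.6, 16.2, 17.2 and 18.7 FPKM at ZT0 and 64.8, 60.1, 65.2 and 59.6 FPKM at ZT12. The values stood far apart, and the rise was 1.91 (SE 0.17, adjusted p = 3.118e-11), against 1.20 in sham. The difference of 0.71 (adjusted p = 0.03095) was lost in a fit of the sham and dexamethasone groups alone (adjusted p = 0.05624) and in 3 of 8 fits that left out 1 library. Sgk1, a kinase induced by corticosteroids, rose from 50.1, 51.7, 63.6 and 45.7 FPKM to 89.3, 83.3, 85.2 and 85.6 FPKM, by 0.71 (SE 0.21, adjusted p = 0.00776). Tsc22d3 (GILZ), a glucocorticoid-induced anti-inflammatory protein, rose by 0.62, Errfi1, an inhibitor of the EGF receptor, by 0.75, and Rhob, a small GTPase, by 0.89 (adjusted p = 0.000194, 0.0142 and 5.245e-05).

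Other targets had higher ZT12 values without passing in the fit over all groups. Cebpd, a C/EBP transcription factor, read 35.7, 38.1, 37.4 and 47.2 FPKM at ZT0 and 85.8, 87.1, 87.4 and 94.6 FPKM at ZT12, a change of 1.17 (adjusted p = 0.614, and 0.0001402 in the 8 libraries). Ddit4 (REDD1), an inhibitor of mTORC1, read 9.25, 9.15, 10.2 and 12.4 FPKM and 64.2, 59.6, 68.5 and 64.9 FPKM, a change of 2.66 (adjusted p = 0.117, and 7.091e-06 in the 8 libraries). Neither gene overlapped between times. The best known atrophy ubiquitin ligases did not pass in either fit: Trim63 (MuRF1) changed by 0.25 and Fbxo32 (atrogin-1) by -0.34. Klf9 and Klf15, which are daily regulated receptor targets, changed by 0.15 and 0.09 and did not pass (adjusted p = 0.269 and 0.704), and their time effects were below those in sham by -0.53 and -0.97 (adjusted p = 0.003647 and 0.000753). Pdk4, an inhibitor of glucose oxidation, read 26.2, 16.1, 0 and 378 FPKM at ZT0 and 71.2 to 124 FPKM at ZT12, so a single ZT0 library spanned the whole scale.

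**Figure D2:**
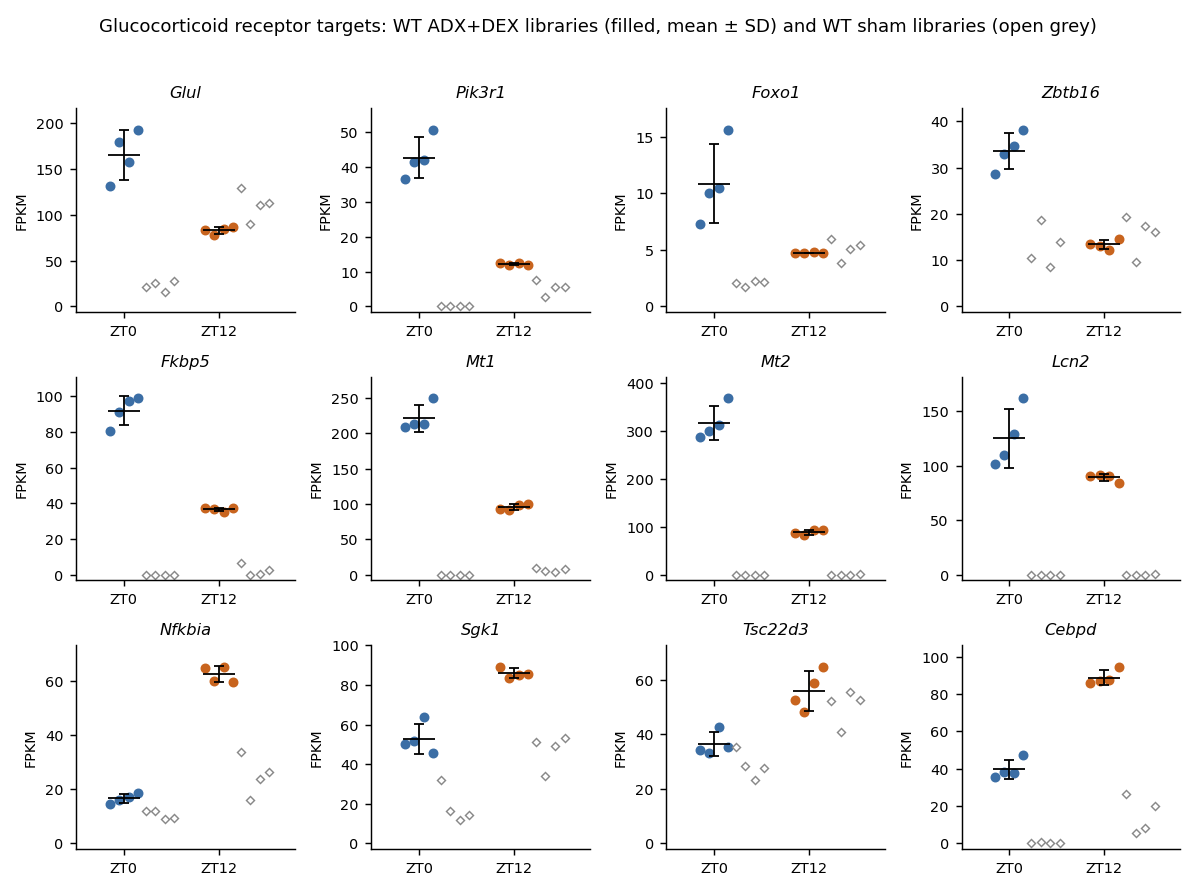
FPKM of 12 glucocorticoid receptor targets in each library at ZT0 and ZT12. Filled points are the dexamethasone-injected libraries, with mean ± SD bars, and open grey diamonds the sham libraries. Fkbp5, Mt1, Mt2 and Lcn2 lie near 0 in sham and high at both times with dexamethasone, higher at ZT0, while Nfkbia, Sgk1, Tsc22d3 and Cebpd are higher at ZT12.

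The ZT0 libraries varied more than the ZT12 libraries in these genes. Of 30 receptor targets with a mean of at least 1 FPKM and no value at 0 in the 8 libraries, ZT0 replicate 4 was the highest ZT0 library in 24 (80%), beside 31.9% of 10251 genes meeting the same conditions. ZT0 replicate 1 was the lowest in 20 (66.7%), beside 31.3%. The median coefficient of variation of the targets was 14.3% at ZT0 and 6.17% at ZT12, beside 7.50% and 7.22% over all such genes. In 17 core clock genes it was 13.7% and 6.53%, and replicate 4 was the highest ZT0 library in 9. These counts were made after the values had been seen. Replicate 4 was also the only younger mouse, and the part of age in this spread was not tested. Without replicate 4, 2890 genes passed in place of 3337, and without any 1 of the 8 libraries 9 to 10 of the 31 targets did.

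Large changes were also seen outside these lists. Pfkfb3, which makes the activator of phosphofructokinase, read 12.4, 10.5, 11.3 and 7.54 FPKM at ZT0 and 86.1, 88.2, 63.4 and 82.6 FPKM at ZT12. It rose by 2.95 (SE 0.35, adjusted p = 2.282e-08), while in sham it was higher at ZT0 (20.3 to 46.0 FPKM) than at ZT12 (6.58 to 17.8 FPKM), and the difference of 4.43 passed (adjusted p = 2.092e-08). Pik3cd, a catalytic subunit of PI3 kinase, rose from 0.783, 0.511, 0.576 and 0.444 FPKM to 3.48, 3.67, 3.53 and 3.60 FPKM, by 2.64 (SE 0.11, adjusted p = 2.633e-21). Sham libraries read 2.87 to 3.38 FPKM at ZT0 and 4.31 to 5.08 FPKM at ZT12, so the dexamethasone libraries lay below every sham library of the same time. The time effect of Pik3cd exceeded those in sham, ADX and adrenaline mice by 2.00, 2.24 and 2.20 (adjusted p = 1.54e-12, 2.149e-13 and 1.218e-13).

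Slc25a25, a mitochondrial ATP-Mg and phosphate carrier, read 0.114, 0.686, 1.73 and 3.04 FPKM at ZT0 and 11.2, 12.5, 14.4 and 14.9 FPKM at ZT12, a rise of 3.999 (SE 0.54, adjusted p = 3.41e-07). Nr4a1, an orphan nuclear receptor induced by adrenergic signals, read 14.7, 18.5, 22.3 and 34.8 FPKM and 89.9, 96.6, 108 and 78.7 FPKM, a rise of 2.11 (adjusted p = 1.698e-06). With adrenaline it changed by 2.20 (difference -0.09, adjusted p = 0.925). The time effect with dexamethasone exceeded those in sham and ADX mice by 2.10 and 1.78 (adjusted p = 0.0007172 and 0.006041). Sik1, a kinase induced by cAMP, is listed at 0 in all 4 ZT0 libraries and read 3.63, 4.71, 4.16 and 2.51 FPKM at ZT12. Junb, an immediate early gene, is likewise listed at 0 at ZT0 and read 1.60, 2.44, 2.15 and 0.839 FPKM at ZT12. In sham, Junb was 8.37 to 17.7 FPKM at ZT0.

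Chac1, which degrades glutathione, read 5.02, 3.33, 2.53 and 2.96 FPKM at ZT0 and 59.8, 77.2, 44.7 and 63.8 FPKM at ZT12. Its rise of 4.17 (SE 1.53, adjusted p = 0.0372) was lost in 7 of 8 fits over all groups that left out 1 library. With only the 8 libraries in the model its limma adjusted p was 4.817e-05. G0s2, an inhibitor of the main triglyceride lipase, read 111, 139, 223 and 163 FPKM at ZT0 and 6.55, 12.0, 12.9 and 14.6 FPKM at ZT12. It fell by 3.80 (SE 1.30, adjusted p = 0.0249), and the call was lost without ZT0 replicate 3 (adjusted p = 0.05644) and without ZT12 replicate 5 (adjusted p = 0.06236). For G0s2 the adjusted p with only the 8 libraries in the model was 0.0001795. Among the other large falls were Snai1, a repressor of epithelial genes (-2.38), Hic1, a transcriptional repressor (-2.11), Sh2b2, an adaptor of the insulin receptor (-2.00) and Slc25a36, a mitochondrial nucleotide carrier (-1.70). Among the other rises were Ackr3, an atypical chemokine receptor (1.75), Slc8a3, a sodium and calcium exchanger (1.99), Gja1, connexin 43 (2.33) and Pdcd4, an inhibitor of translation (1.34).

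**Figure D3:**
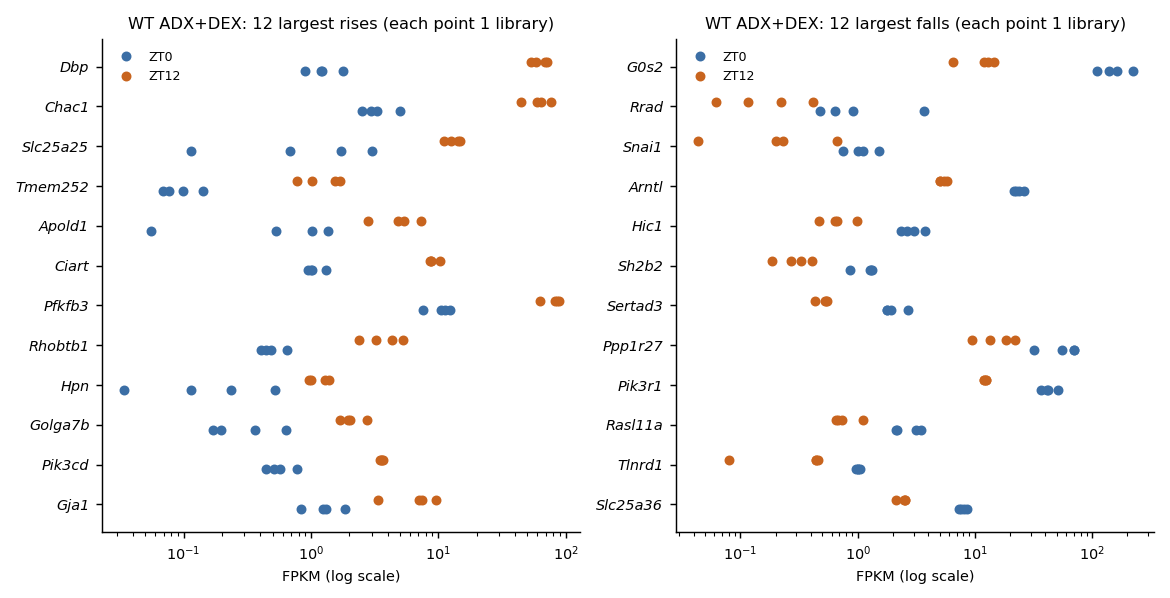
FPKM, on a log axis, of the 12 largest rises and 12 largest falls that passed the test without overlap between times. Each point is 1 library at ZT0 or ZT12. Slc25a25 spreads from 0.114 to 3.04 FPKM at ZT0, while Pik3cd stays within 3.48 to 3.67 FPKM at ZT12.

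In the insulin signalling list 2 of 12 tested genes rose and 4 fell, beside 14.7% and 13.2% of all genes. Besides Pik3r1, Slc2a4, the insulin-regulated glucose transporter GLUT4, fell by 0.45, from 238 ± 6.81 to 174 ± 6.08 FPKM (SD, n = 4 each). The paralogs that restrain it moved apart. Tbc1d1 read 48.6, 51.7, 45.5 and 64.9 FPKM at ZT0 and 25.6, 24.1, 29.5 and 25.9 FPKM at ZT12 and fell by 0.99, and Tbc1d4 (AS160) rose by 0.79 from 7.04 ± 0.774 to 12.2 ± 1.07 FPKM. The time effect of Tbc1d1 was below that in sham by -1.52 (adjusted p = 4.325e-05). Of 25 glucose and glycogen genes, 3 rose and 7 fell (the same shares of all genes apply), with Slc2a1 (GLUT1) at -0.81. Gapdh is in that count at 6.24 FPKM, a low value for a gene with many near-identical copies, and is uncertain. Ppp1r3c, a glycogen-targeting phosphatase subunit chosen after its values were seen, read 593, 709, 831 and 884 FPKM at ZT0 and 168.0, 168.4, 169.8 and 189 FPKM at ZT12, against 88.6 to 114 FPKM and 3.39 to 62.1 FPKM in sham. Its change of -2.10 did not pass (adjusted p = 0.2817), and passed in the 8 libraries alone (adjusted p = 5.447e-05).

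Growth and breakdown genes gave both directions. Of the myogenic and growth list 2 of 16 rose and 5 fell, beside 14.7% and 13.2% of all genes, so the rises were near the share of all genes. Myod1, the myogenic determination factor, read 29.0, 29.4, 35.9 and 27.9 FPKM at ZT0 and 11.9, 14.1, 12.5 and 12.6 FPKM at ZT12 and fell by 1.25 (SE 0.20, adjusted p = 7.246e-06). Myf6 (MRF4) read 121, 118, 113 and 141 FPKM and 63.0, 64.6, 65.3 and 63.0 FPKM and fell by 0.94, and Myf5 fell by 1.02. The time effects of Myod1 and Myf6 were below those of sham by -1.38 and -0.73, of ADX by -1.28 and -0.77, and of adrenaline by -1.12 and -0.90, and all 6 differences passed. In the FOXO and atrophy list 7 of 22 rose and 3 fell, the falls again near the share of all genes. Foxo3 fell by 0.57 beside Foxo1, whereas Gadd45a, a stress gene of atrophying muscle, rose from 8.32, 9.91, 10.3 and 7.52 FPKM to 24.3, 21.0, 25.4 and 31.1 FPKM, by 1.49. Autophagy and lysosome genes had 8 of 17 risen and 1 fallen, with a median of 0.16. They included Ctsl, a lysosomal protease (0.77), Ulk1, the kinase that starts autophagy (0.44), and Bnip3l, a mitophagy receptor (0.43).

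Stress lists and the sterol list had more falls than rises, beside 14.7% risen and 13.2% fallen over all genes. Of 16 unfolded protein and amino acid stress genes, 2 rose and 10 fell, with a median of -0.28. Ddit3 (CHOP), a stress transcription factor, fell by 1.24, Slc38a2, an amino acid transporter, by 1.02, and Sesn2, a leucine sensor, by 0.53, while Chac1 rose. Of 18 heat shock and cold-inducible genes 1 rose and 8 fell, with a median of -0.39. Hsp90aa1, the chaperone that holds the glucocorticoid receptor ready for ligand, fell from 8.55 ± 0.461 to 4.65 ± 0.233 FPKM, Hspb1 from 91.1 ± 11.8 to 51.2 ± 2.73 FPKM and Hspa8 from 98.7 ± 2.91 to 74.7 ± 3.06 FPKM (SD, n = 4 each). Of 13 sterol and lipogenic genes, 0 rose and 6 fell, among them Scd2, a fatty acid desaturase, by 1.25, and Srebf2, a transcription factor of sterol synthesis, by 0.39. Of 27 fatty acid uptake and oxidation genes, 2 rose and 0 fell, while 0 rose and 1 fell with only the 8 libraries in the model. None of 22 tested oxidative phosphorylation genes passed, and 1 of 24 ribosomal protein genes fell.

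**Figure D4:**
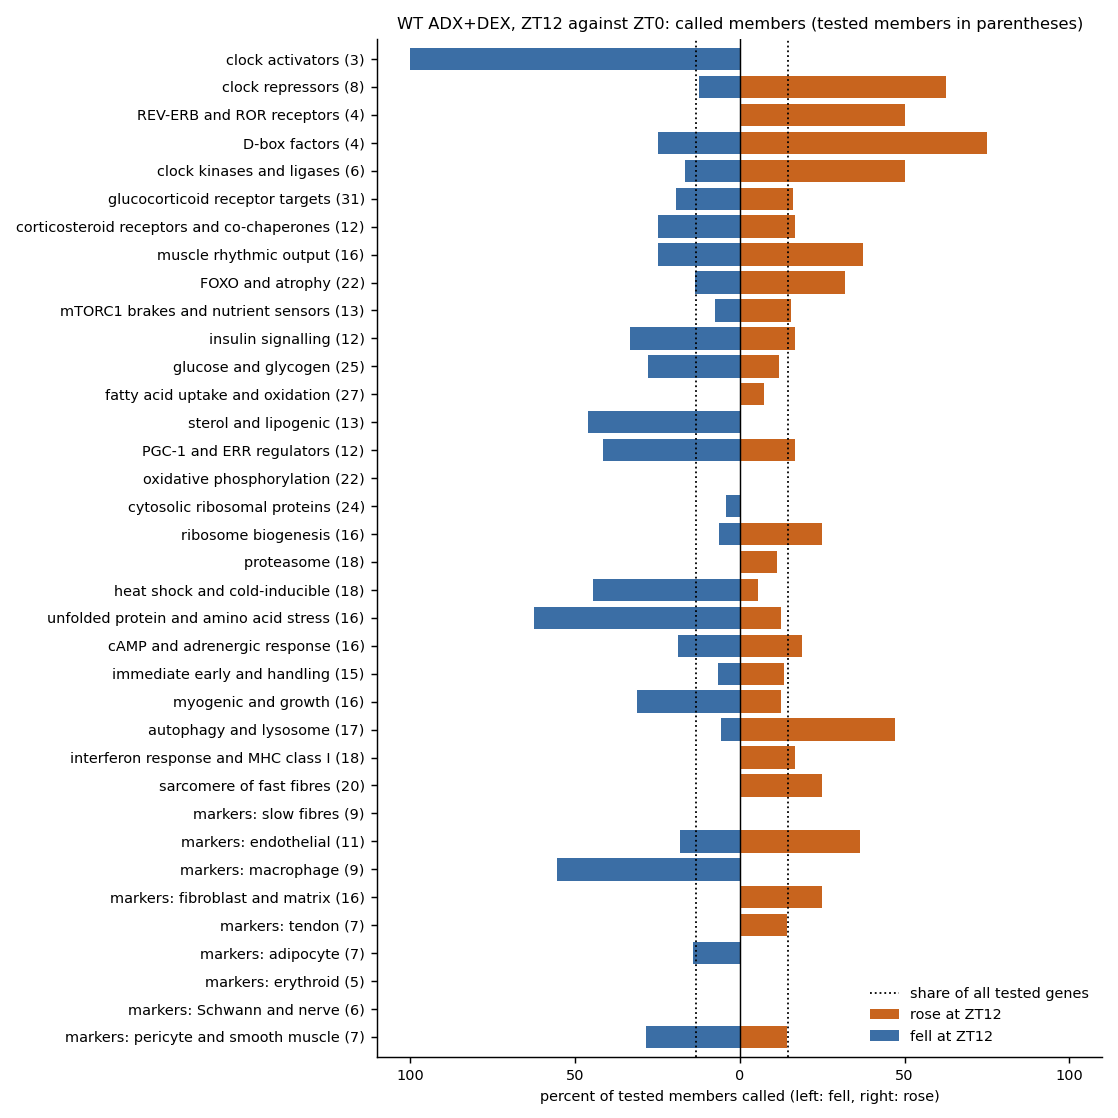
Percent of tested members of each gene list that rose or fell from ZT0 to ZT12 with dexamethasone. Dotted lines give the shares over all genes, 14.7% risen and 13.2% fallen. All 3 tested clock activators fell, and unfolded protein, heat shock and sterol lists have more falls than rises.

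Markers of other cells of muscle were read alongside. Of 9 tested macrophage markers, 0 rose and 5 fell (Csf1r, C1qa, C1qb, C1qc and Lyz2), beside 14.7% and 13.2% of all genes, which also stand beside the other marker counts. The summed level of the list was 31.6 to 54.0 FPKM at ZT0 and 19.7 to 26.0 FPKM at ZT12, without overlap, and 3 fell in the 8 libraries alone. Of 11 endothelial markers 4 rose, among them Cdh5 by 0.35 and Cldn5 by 4.13, and 2 fell, Egfl7 by 1.28 and Emcn by 0.37. Cldn5 is listed at 0 in 2 ZT0 libraries, so the size of its rise depends on the offset. In the 8 libraries alone 1 endothelial marker rose and 2 fell. Of 16 fibroblast markers 4 rose in the fit over all groups and 0 in the 8 libraries alone, with sums of 343 to 391 FPKM at ZT0 and 294 to 390 FPKM at ZT12. Slow fibre, erythroid and Schwann cell markers had 0 called of 9, 5 and 6 tested, and neutrophil and lymphocyte markers were not analysed here. The part of macrophage content in the results above was not tested.

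Time effects were also compared with those of the other wild-type conditions. In 2268 of 12000 genes (18.9%) the time effect with dexamethasone differed from that in sham, 1105 with a higher and 1163 with a lower value. The corresponding numbers were 2068 (17.2%) against ADX and 1631 (13.6%) against adrenaline. The count against ADX was 1347 in a fit of the ADX and dexamethasone groups alone and 262 with the replicate number as a block. With that block the count against sham was 1382. In ADX mice the replicate numbers do not follow the same times as with dexamethasone, so the 262 is not like the 1382. Of the 3337 genes that passed with dexamethasone, 1002 also passed in sham, which is 30% of the first and 35.6% of the 2818 sham genes. Of all tested genes 27.8% passed with dexamethasone and 23.5% in sham. In 800 of the 1002 the direction was the same. The other 202 had opposite directions: 70 rose with dexamethasone and fell in sham, and 132 fell with dexamethasone and rose in sham. Glul and Foxo1 belonged to the 132 and Nr1d1 and Pfkfb3 to the 70. Against sham, the time effect of 14 of the 31 receptor targets was lower and that of 2 higher, beside 9.69% and 9.21% of all genes. Genes called both with dexamethasone and with adrenaline numbered 725 (21.7% of the 3337), 632 of them in the same direction. Genes called both with dexamethasone and in ADX mice numbered 446 (13.4%), 361 in the same direction. Of all tested genes 12.7% passed with adrenaline and 11.0% in ADX mice. In ADX mice, however, 1322 genes were called over time in the fit over all groups and 44 when the ADX groups were fitted alone.

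**Figure D5:**
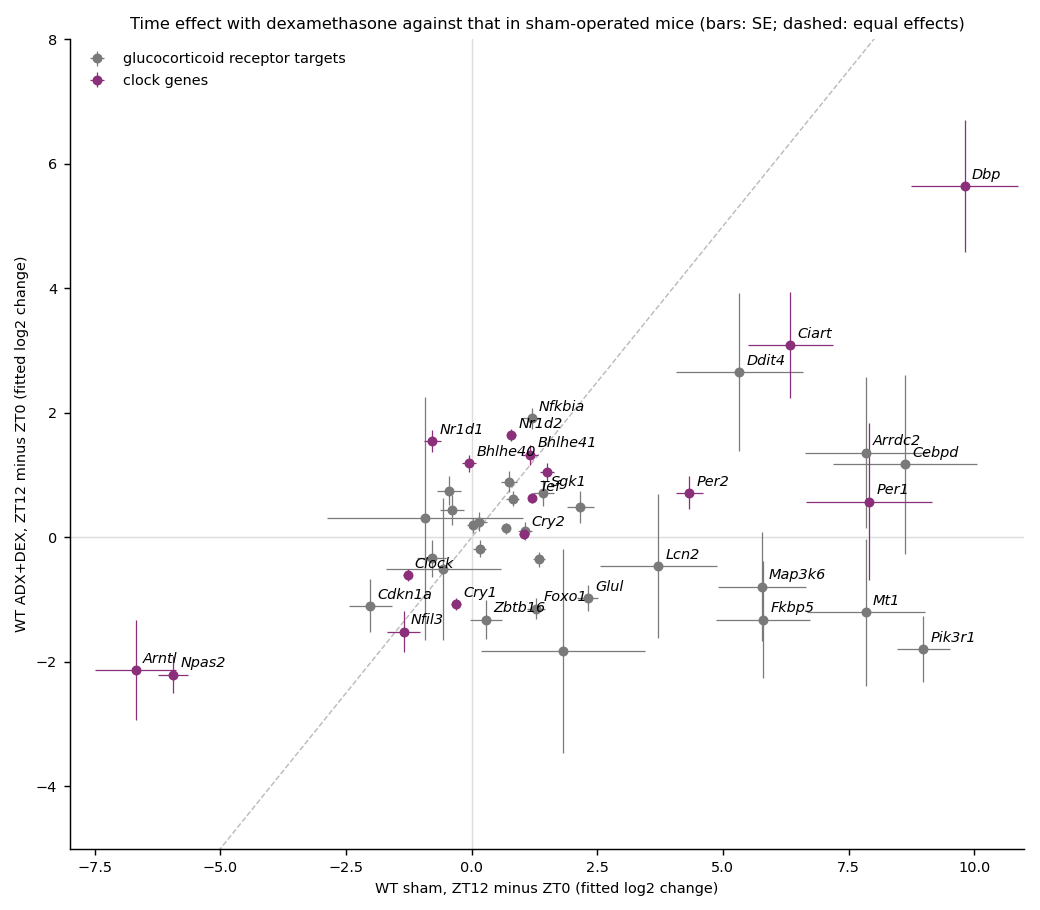
Fitted log2 change from ZT0 to ZT12 in sham (horizontal axis) and with dexamethasone (vertical axis) for clock genes and glucocorticoid receptor targets. Bars are SE and the dashed line marks equal changes, Per3 and Pdk4 are left out, and sham changes of genes listed at 0 depend on the offset of 0.01 FPKM. Arntl lies at -6.68 and -2.13, Nr1d1 at -0.78 and 1.55, and Glul at 2.31 and -0.97.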

How the data were processed

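Bulk RNA sequencing of 47 mouse tibialis anterior libraries was used, 8 of them from adrenalectomized mice given dexamethasone. The deposited table holds log2 values of FPKM for 13500 genes, which the authors made from single-end reads. Per the labels, reads were 60 bases long and averaged 25 M per sample. The submitters' processing notes name edgeR 3.30.0, featureCounts 1.6.2, HISAT2 2.1.0, Trim Galore 0.5.0, FastQC 0.11.8 and the build GRCm38. The lowest value, -6.64, equals log2 of 0.01, so values were read as log2(FPKM + 0.01). No counts were used: in 1024 genes that are rarely listed at 0, only 8.7% to 10.7% of values were whole multiples of 1 read (tolerance 0.05 read), where 10% would be by chance. The strand setting of the counting and any step behind the shared low values are not given in the sources used here.

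Group means of all 47 libraries, those of RE-RE mice among them, were modelled with limma 3.58.1 in R 4.3.3 (12 groups, eBayes with trend, 35 residual degrees of freedom). The 12000 genes with 1 FPKM or more in 3 or more libraries were tested, two-sided, with Benjamini-Hochberg adjustment over all of them in each contrast and a threshold of 0.05. Differences of time effects between conditions were contrasts of the same model. In simulated data on 12000 genes, changes of size 1 (100 genes) and 2 (100 genes) on the log2 scale were recovered in 88% and 91% for ZT12 against ZT0 with dexamethasone, with 9 unchanged genes called. For the difference from sham, 84% and 89% were recovered, with 14. Recovery in genes whose spread differs between groups, or with libraries at the lowest deposited value, was not tested.

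Named genes were the 12 largest rises, 12 largest falls and 10 smallest adjusted p among called genes whose higher group averaged 1 FPKM or more, without overlap between times, any 0 or a predicted gene name. To these were added all clock genes and receptor targets, 4 called members of each other list with at least 3, and the 4 largest differences of either sign from each other condition; not all of them are described, and some are not reported here. The groups, lists and genes were chosen with earlier results of these data known. Ppp1r3c, the plotted genes and the detail given to each were chosen after values were seen. Lists are described by counts and medians beside those of all genes. The alternatives were log2(FPKM + 1), no filter, equal medians, a model of the compared groups alone, an age covariate, genes with a 0 left out, no trend, a replicate block and each library left out. Linear FPKM in the 8 libraries was chosen after seeing the data. For 59 genes no symbol was found. Sequences came from RefSeq windows of GRCm38.p6. Python 3.11.15, pandas 2.3.3 and matplotlib 3.10.9 served for tables and plots.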

Additional observations from a re-analysis of the deposited data

Results flagged for a closer look

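In 18 of 265 combinations of a gene and a time, 1 of the 4 libraries lay far from the other 3. The measure was the gap to its neighbour over the whole range. For independent groups chance alone gives about 1 in 20. These combinations are not independent, since the genes were chosen and share the same 8 libraries. ZT0 replicate 4 was that library in 6 and ZT12 replicate 8 in 5. ZT0 replicate 4 was highest for Mt1 (249.3 FPKM), Trim63 (111.4 FPKM), Pdk4 (377.6 FPKM), the transporter Slc38a2 (68.68 FPKM) and the arginine sensor paralog Castor2 (16.75 FPKM), and lowest for the ubiquitin ligase subunit Btrc (3.504 FPKM). ZT12 replicate 8 was highest for Nfil3 (18.21 FPKM) and Ppp1r3c (188.6 FPKM), and lowest for Rhob (72.71 FPKM), Sertad3 (0.4288 FPKM) and Tlnrd1 (0.08031 FPKM). ZT0 replicate 1 was highest for the GTPase Rrad (3.68 FPKM) and lowest for Sh2b2 (0.8605 FPKM). ZT0 replicate 3 was highest for Fbxw11 (20.11 FPKM) and Sertad3 (2.666 FPKM). At ZT12, replicate 5 was highest for Irs2, an insulin receptor substrate (5.478 FPKM), replicate 6 for Ciart (10.33 FPKM), and replicate 7 was lowest for Slc25a36 (2.14 FPKM).

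The time effect with dexamethasone differed from that in sham in 2268 genes, from ADX in 2068 and from adrenaline in 1631, by contrasts of the limma model. Among clock genes, the fitted difference from sham (log2, dexamethasone minus sham) was 4.55 for Arntl, 0.66 for Clock, 2.33 for Nr1d1, 0.85 for Nr1d2 and 1.24 for Bhlhe40. It was -3.62 for Per2, -0.76 for Cry1, -0.98 for Cry2 and -0.57 for Tef. Fitted values of 3.74 for Npas2, -7.34 for Per1, -4.16 for Dbp and 7.21 for Per3 depend on the offset, since at least 1 of the groups compared has libraries listed at 0, as has Arntl in 1 sham library. On log2(FPKM + 1) they were 0.29 for Npas2, -3.40 for Per1, -0.0055 for Dbp, 1.20 for Per3 and 1.77 for Arntl, and the one for Dbp did not pass (adjusted p = 0.997).

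Among receptor targets most differences were negative. They were -3.28 for Glul, -2.42 for Foxo1, -1.61 for Zbtb16, -1.70 for Sult1a1, -1.68 for Cebpb, -0.53 for Klf9 and -0.97 for Klf15, and positive for Nfkbia (0.71) and Errfi1 (1.21). Values for genes with sham libraries listed at 0 depend on the offset of 0.01 FPKM and give no size: -10.78 for Pik3r1, -7.12 for Fkbp5, -9.05 for Mt1, -7.45 for Cebpd, -6.48 for Arrdc2 and -6.56 for the kinase Map3k6. On log2(FPKM + 1) these 6 were -4.33, -2.67, -3.94, -2.37, -3.79 and -2.26 and passed as well.

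Outside these lists the differences from sham were 4.43 for Pfkfb3, 6.56 for the endothelial gene Apold1, 3.42 for Slc25a25, 2.00 for Pik3cd and 2.10 for Nr4a1. They were -1.38 for Myod1, -0.73 for Myf6, -1.20 for Foxo3 and -1.52 for Tbc1d1.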

How the results depend on the processing

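The count of genes that passed with dexamethasone, 3337, was 3327 on log2(FPKM + 1), 3568 without a filter, 3330 with equal medians, 3230 without genes listed at 0, 3233 with age, 3343 without the trend, 2487 with only the 8 libraries, and 2358 on linear FPKM, an alternative chosen after seeing the data. Leaving out 1 library gave 2890 to 3206, the lowest without ZT0 replicate 4. The differences from sham, ADX and adrenaline, 2268, 2068 and 1631 genes, ranged over 1935 to 2318, 1760 to 2146 and 1261 to 1695. With only the groups compared, the difference from ADX gave 1347 genes. ZT12 against ZT0 in ADX mice then gave 44 in place of 1322. The cause of these drops was not tested. Among the single genes examined, no call changed direction. Fits of only the compared groups, without a filter or without the trend keep the group means, so they could not reverse a gene. In the fit over all groups more genes rose (1759) than fell (1578), but fewer rose (1190) than fell (1297) with only the 8 libraries. The difference from adrenaline went from 912 higher and 719 lower to 663 and 841 with only the groups compared.

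No paired analysis was possible for ZT12 against ZT0 because the replicates numbered 1 to 4 and 5 to 8 share no number. Between conditions, numbers are shared, and a model with the replicate block and the compared groups alone was fitted. In it, 1382 genes differed from sham, 262 from ADX and 1304 from adrenaline. The ADX libraries are numbered otherwise: number 4 is a ZT12 library there and a ZT0 library with dexamethasone, and number 8 is absent. The block against ADX thus joined libraries of different times, and its count is not like those against sham and adrenaline. Deviations of same-numbered libraries correlated by -0.151 to 0.161 with sham, -0.127 to 0.156 with ADX and -0.0586 to 0.249 with adrenaline. Differently numbered libraries were not summarized beside them, so these values cannot decide whether the numbers mark pairs. Under the block the differences of Arntl, Dbp, Nfkbia, Arrdc2 and Slc25a25 lost their calls.

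Of 134 single genes examined, the 8 libraries alone ended 12 calls, among them Rrad, Tlnrd1, Myog and Csf1r, and added 10. Depth limits genes below about 1 FPKM, where shared low values also lie.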
